A study of Homo sapiens with 6 samples.

Results

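Aquaporins and the leucine-rich repeat proteins of the LRRC8 family, 10 genes in all, were examined among 18404 genes measured in chordoma cells with and without large vacuoles. The genes were chosen by name, *AQP1*, *AQP3*, *AQP5*, *AQP9*, *AQP11* and *LRRC8A* to *LRRC8E*, and each was represented by 1 probe set that carried its symbol alone. MUG-Chor1 is an established line grown from a chordoma of the sacrum and coccyx, a notochord-like tumor, and was kept without treatment in IMDM/RPMI with serum. Each of 6 samples was a pool of 20 trypsinized cells picked by micromanipulation: 3 pools of large physaliferous cells (pools 2, 3 and 4) and 3 pools of small non-vacuolated cells (pools 5, 6 and 7). Whole-transcript amplification gave cDNA that was labelled and read on 1 Human Gene 1.0 ST array per pool. All pools share this single line, and the sources used here do not tell whether separate cultures were used; every p-value therefore covers only the spread among these pools, which may be technical. The medium-sized, partly vacuolated cells of the line were not on the arrays.

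Aquaporins are membrane channels that let water, and in the aquaglyceroporins also glycerol, follow an osmotic gradient. LRRC8 proteins assemble into the volume-regulated anion channel, which opens when a cell swells and lets chloride and organic osmolytes leave; *LRRC8A* is the subunit that every such channel needs, and the other members are its partners. Notochord and physaliferous cells are known for fluid-filled vacuoles that take up much of the cell, and how such cells move water and ions is therefore a standing question. The arrays measure transcripts and not channel protein, channel activity or the place of a channel in the cell.

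For orientation, 80 bases before the annotated transcription start (RefSeq, GRCh38.p14) are shown for *AQP1*, *AQP3* and *AQP5* and for *LRRC8A* and *LRRC8B*; the results below turn most on these genes, together with *AQP3* as the third aquaporin with a TATA-like run. The genes not shown lie on chromosome 15 from 58138169 to 58185911 (*AQP9*), chromosome 11 from 77589953 to 77610356 (*AQP11*), chromosome 1 (*LRRC8C* and *LRRC8D*) and chromosome 19 from 7888510 to 7902016 (*LRRC8E*). Of the 10 genes, 9 had a promoter in the RefSeq table and *AQP11* had none. The windows lie at chr7:30911773-30911852 (plus strand) for *AQP1*, chr9:33447594-33447673 (minus strand) for *AQP3*, chr12:49961792-49961871 (plus strand) for *AQP5*, chr9:128882053-128882132 (plus strand) for *LRRC8A* and chr1:89524749-89524828 (plus strand) for *LRRC8B*. Capitals mark TATAA or TATATA and the GC box GGGCGG, each searched on both strands.
AQP1: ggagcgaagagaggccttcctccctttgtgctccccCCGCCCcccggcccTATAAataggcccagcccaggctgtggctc
AQP3: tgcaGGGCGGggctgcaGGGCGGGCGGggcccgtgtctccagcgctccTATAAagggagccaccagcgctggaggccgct
AQP5: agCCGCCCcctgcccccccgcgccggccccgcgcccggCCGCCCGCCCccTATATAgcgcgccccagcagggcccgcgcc
LRRC8A: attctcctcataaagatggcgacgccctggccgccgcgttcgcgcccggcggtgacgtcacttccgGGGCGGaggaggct
LRRC8B: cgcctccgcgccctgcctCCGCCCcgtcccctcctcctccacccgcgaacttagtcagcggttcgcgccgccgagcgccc
*AQP1* and *AQP3* held TATAA within 50 bases of the start, as did 6.52% of 27305 promoters. *AQP5* held TATATA there, as did 1.28% of promoters. The 5 *LRRC8* promoters and that of *AQP9* held neither. The GC box stood within 250 bases of the start in all *LRRC8* genes and in *AQP1*, *AQP3* and *AQP5*, against 42.2% of all promoters. *AQP9* stood apart with a GC content of 33.6% over 250 bases, where the others ran from 65.2% to 84.4% and the median promoter had 57.6%. These matches describe letters, and the arrays do not test whether a factor binds there.

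In the aquaporins no difference between the phenotypes passed the test, and all 5 had somewhat lower mean values in large cells, except that *AQP3* turned to 0.01 once the signal trend, a smooth curve of each array's deviation against mean signal, had been taken out. The order of these small differences was led by *AQP5* and *AQP1*. *AQP3* and *AQP5* lay close to the expression floor, a log2 signal of 6.64 (100 on the linear scale) that stands here for detectable expression, and *AQP1*, *AQP9* and *AQP11* lay below it in every pool. All values below are log2 expression after robust multi-array averaging, and levels of different genes cannot be ranked against each other because their probe sets differ.

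*AQP5*, a water channel of secretory glands, had values of 6.74, 6.59 and 6.85 in large pools 2, 3 and 4 and of 7.13, 7.03 and 7.11 in small pools 5, 6 and 7. Every large pool was thus below every small pool, and large pool 3 was below the floor. The mean was 6.73 ± 0.13 (SD, n = 3) in large and 7.09 ± 0.05 (SD, n = 3) in small pools, so that large minus small was -0.36 on the log2 scale (SE 0.11, 95% confidence interval -0.62 to -0.11, adjusted p = 0.323 by limma).
*AQP1*, the classical water channel of red cells and of endothelium, had 5.92, 5.76 and 5.81 in the large pools and 6.20, 6.11 and 5.98 in the small pools. The groups did not overlap, but all 6 values were under the floor. The log2 fold change was -0.27 (SE 0.11, interval -0.52 to -0.01, adjusted p = 0.335 by limma) and, being between signals near background, gives no size of change.
*AQP3*, an aquaglyceroporin best known from epidermis and kidney, was above the floor in all 6 pools. Its values were 6.92, 6.73 and 6.75 in large and 6.97, 6.95 and 6.89 in small pools. Large pool 2 lay among the small pools. The log2 fold change was -0.14 (interval -0.38 to 0.10) and, as said, 0.01 with that trend removed.
*AQP9*, an aquaglyceroporin of liver and leukocytes, had 5.55, 5.55 and 5.98 in large and 5.74, 6.00 and 5.94 in small pools. *AQP11*, an unorthodox aquaporin of the endoplasmic reticulum, had 5.54, 5.08 and 5.16 in large and 5.62, 5.30 and 5.32 in small pools. In both genes a large pool overlapped the small ones, pool 4 for *AQP9* and pool 2 for *AQP11*. Their log2 fold changes were -0.20 (interval -0.58 to 0.18) and -0.15 (interval -0.55 to 0.25). Single pools moved both, *AQP9* to -0.34 without large pool 4, where the groups no longer overlapped, and to -0.13 without large pool 2 or 3. *AQP11* moved to -0.29 without large pool 2, again with no overlap, to -0.06 without large pool 3 and to -0.05 without small pool 5.

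**Figure D1:**
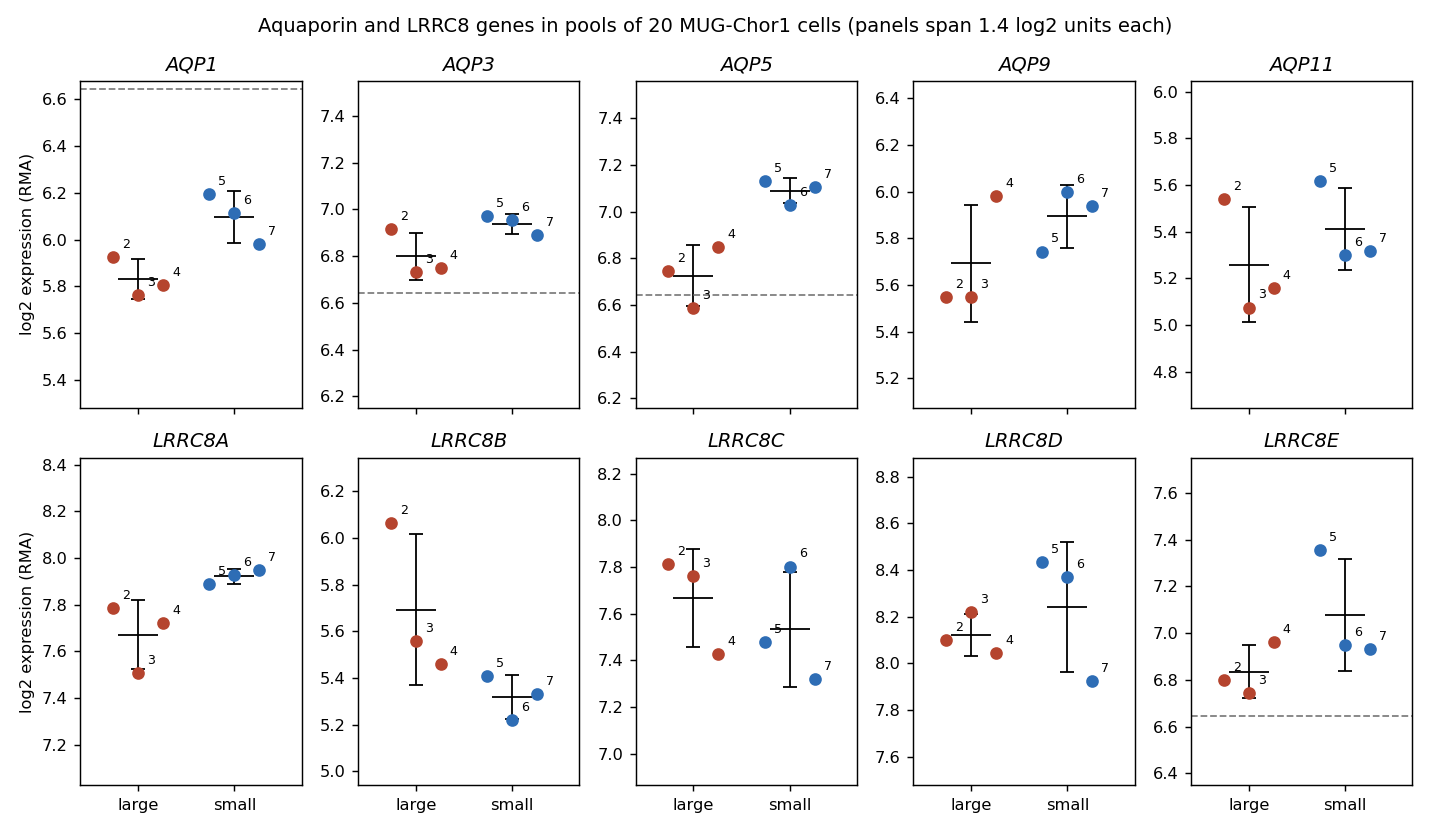
Log2 expression (vertical axis) of each gene in the 3 large and 3 small pools, with the pool number beside each point, horizontal lines for means and bars for SDs (n = 3 pools); each panel spans the same range around its own values, and a dashed line at 6.64 for the expression floor in panels that reach it. *AQP1*, *AQP5* and *LRRC8A* have every large pool below every small pool, *LRRC8B* has every large pool above, and the other 6 genes overlap.

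Among the LRRC8 genes 0 of 5 passed the test by limma, and 0 had an unadjusted p under 0.05 as deposited. Elsewhere *LRRC8B* had such a p after centring, with the signal trend removed and without large pool 4, and *LRRC8A* after further quantile normalization and without large pool 2. *LRRC8A* had slightly lower and *LRRC8B* slightly higher values in every large pool, whereas *LRRC8C*, *LRRC8D* and *LRRC8E* overlapped. *LRRC8A*, *LRRC8C*, *LRRC8D* and *LRRC8E* were above the floor in all 6 pools, and *LRRC8B* was below it in all of them.

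*LRRC8A*, the obligatory subunit, had 7.79, 7.51 and 7.72 in the large pools and 7.89, 7.93 and 7.95 in the small pools. The small pools lay within a narrow range and all large pools were below it. The mean was 7.67 ± 0.15 (SD, n = 3) in large and 7.92 ± 0.03 (SD, n = 3) in small pools, and large minus small was -0.25 on the log2 scale (SE 0.11, interval -0.51 to 0.01, adjusted p = 0.340 by limma).
*LRRC8B*, a partner subunit of *LRRC8A*, had 6.06, 5.56 and 5.46 in large and 5.41, 5.22 and 5.33 in small pools. Large pool 2 was the highest and large pool 4 was close to small pool 5. The log2 fold change of 0.37 (SE 0.18, interval -0.06 to 0.81, adjusted p = 0.354 by limma) was 0.19 without large pool 2, and since all values were below the floor it gives no size of change.
*LRRC8C*, a partner subunit studied in endothelium and lymphocytes, had 7.81, 7.76 and 7.43 in large and 7.48, 7.80 and 7.32 in small pools, so the groups were interleaved. Its log2 fold change was 0.13 (interval -0.28 to 0.55). It lay between 0.03 without small pool 7 and 0.27 without small pool 6, with 0.06 without large pool 2, 0.09 without large pool 3 and 0.25 without large pool 4.
*LRRC8D*, the partner that lets uncharged osmolytes and some drugs pass, had 8.10, 8.22 and 8.04 in large and 8.43, 8.37 and 7.92 in small pools. Small pool 7 lay below all large pools and the other small pools above them. The log2 fold change was -0.12 (interval -0.51 to 0.27), and was -0.28 without small pool 7, -0.02 without small pool 5 and -0.06 without small pool 6.
*LRRC8E*, another partner of *LRRC8A*, had 6.80, 6.74 and 6.96 in large and 7.36, 6.95 and 6.93 in small pools. Small pool 5 alone stood clearly above the large pools. The log2 fold change of -0.24 (interval -0.61 to 0.12) was -0.10 without that pool.

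*LRRC8B*, *LRRC8C* and *LRRC8D* are neighbours on chromosome 1 of GRCh38.p14, between positions 89524829 and 89936611. Their log2 fold changes were 0.37, 0.13 and -0.12 in that order along the chromosome, with intervals that overlapped and that all held 0.

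By limma over 18404 genes, 0 of the 10 genes passed an adjusted p under 0.05 with an absolute log2 fold change above 1, with adjusted p from 0.323 to 0.688, and 0% of all genes did. At an unadjusted p under 0.05 were 2 of the 10, *AQP5* and *AQP1*, both lower, and 0 were higher. Of all genes 10.5% were lower and 4.33% higher at that p. Without large pool 3, or without small pool 5 or 6, only *AQP5* of the 10 had such a p. Without large pool 2 there were 3, *AQP1*, *AQP5* and *LRRC8A*, and without large pool 4 also 3, *AQP5*, *AQP9* and *LRRC8B*. Of all 18404 genes 1591 were lower and 684 higher at that p without large pool 2, and 1530 and 810 without large pool 4. The counts were 1239 and 684 without large pool 3, 1021 and 823 without small pool 5, and 1228 and 717 without small pool 6. In 3 of the 10 every large pool lay below every small pool, as in 21.6% of all genes, and in 1 every large pool lay above, as in 5.48%. With 3 pools on each side, the smallest p an exact permutation test (two-sided) can reach is 0.1.
The values were lower for most genes of the arrays in large cells. Of all genes 66.4% had a lower mean in large cells, and the median log2 fold change was -0.11. In 5 equal classes of signal level, dimmest to brightest, 70.1%, 77.3%, 78.2%, 68.6% and 38.0% of genes were lower. *AQP9* and *AQP11* were in the dimmest class, *AQP1* in the next, and *AQP3* and *AQP5* in the middle one. For the 10 genes 8 were lower, or 7 with the signal trend removed, and the median was -0.18. Relative to the median of all genes the log2 fold changes were -0.25 for *AQP5*, -0.16 for *AQP1*, -0.14 for *LRRC8A*, -0.13 for *LRRC8E*, 0.24 for *LRRC8C* and 0.48 for *LRRC8B*, and between -0.09 and -0.01 for *AQP3*, *AQP9*, *AQP11* and *LRRC8D*.
Among genes of a like signal level the share with every large pool below every small pool was 32.9% for the class of *AQP5*, 27.9% for that of *AQP1* and 25.2% for that of *LRRC8A*, with 5 equal classes in all. In the dimmest class, which holds *LRRC8B*, 2.74% of genes had every large pool above. Removing each array's trend with signal level moved the median of all genes to -0.004. *AQP5* then had -0.21, *AQP1* -0.14, *LRRC8A* -0.19 and *LRRC8B* 0.48, and the groups still did not overlap for *AQP5*, *LRRC8A* and *LRRC8B*, but did for *AQP1*.

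**Figure D2:**
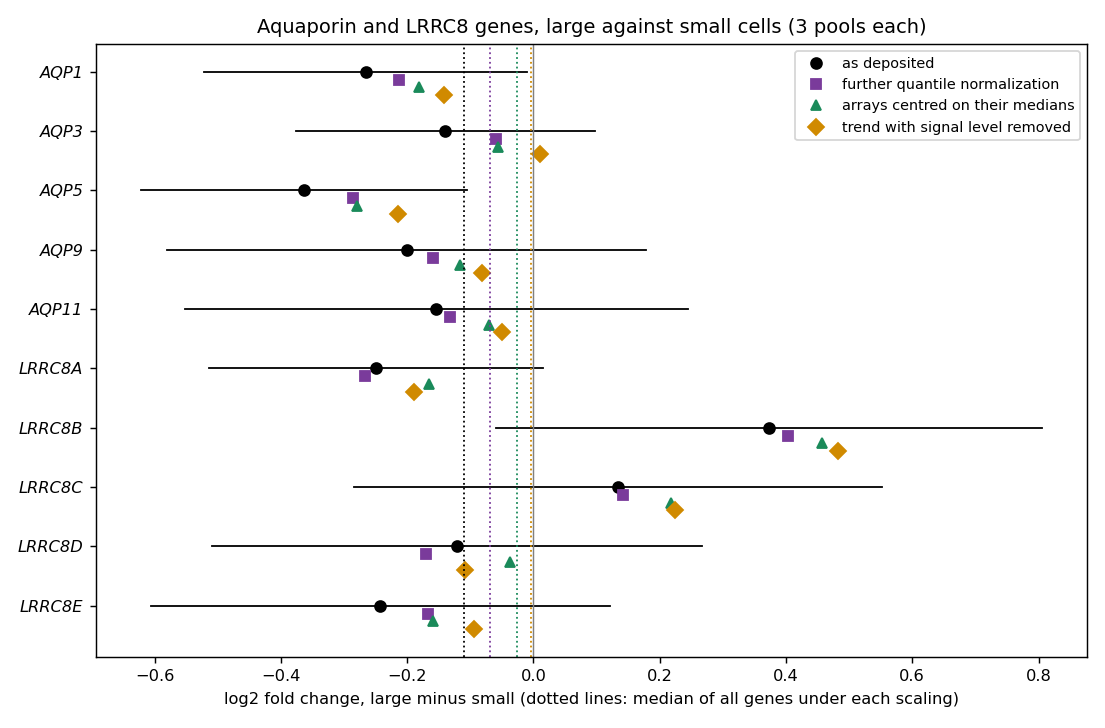
Differences between large and small pools as log2 fold changes (horizontal axis) for each gene, with 95% confidence intervals from limma for the deposited values (3 pools against 3) and points for 3 other scalings; dotted lines mark the median of all genes under each scaling. *LRRC8B* and *LRRC8C* stay to the right of 0 and the other genes to the left under each scaling shown, except *AQP3*, which reaches 0.01 with the trend with signal level removed.

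The aquaporins outside the list gave a background for the values above. Of 9 such genes 7 had a probe set of their own, while *AQP12A* and *AQP12B* share theirs. In 6 of the 7 the mean was lower in large cells (median log2 fold change -0.21), and in 5 after centring (median -0.13) or removal of the signal trend (median -0.06). The signal class of *AQP5* holds *AQP2*, *AQP6*, *AQP8*, *AQP10* and *MIP*, and 78.2% of its genes were lower as deposited. As deposited, 3 of the 7 were lower at an unadjusted p under 0.05, and 0 passed by limma. At that p 10.5% of all genes were lower, and 16% of the signal class of *AQP5*, which holds these 3. That count of 3 was 0 without small pool 7 and with the signal trend removed, 1 without small pool 5 or 6 and after further quantile normalization or centring, and 2 without large pool 2 or 4. *AQP2*, the vasopressin-regulated channel of the kidney collecting duct, had 6.89, 6.57 and 6.78 in large and 7.09, 7.09 and 7.09 in small pools. Its log2 fold change of -0.34 was close to that of *AQP5*, its neighbour on chromosome 12, and the antisense gene *AQP5-AS1* overlaps both. *AQP8*, a channel of gut and liver, had -0.30, and *AQP10*, an aquaglyceroporin of the small intestine, had -0.23. In these 3 genes, which have the smallest p of the list, and in *AQP6* (-0.16) every large pool lay below every small pool. The same held for 21.6% of all genes and for 32.9% of the signal class of *AQP5*, which also holds *AQP6*. *AQP8* was under the floor in all large pools. The pools overlapped for *MIP* (-0.21), *AQP7* (-0.06) and *AQP4* (0.16). *AQP4*, *AQP6*, *AQP7* and *MIP* were named after their values were seen. Whether the signals of these aquaporins and of *AQP5* hold transcript or background was not tested.

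The genes whose pattern over the 6 pools was most like that of *AQP5*, out of 10634 with a mean above the floor, were *TMEM82* (Pearson r = 0.998), *ZNF710* (0.995) and *ZNF687* (0.994). For *AQP1* they were *FGF17* (0.997), *MGRN1* (0.995) and *ZBTB32* (0.995). *AQP1* itself was below the floor in every pool, so these genes match a signal near background. High values are easily reached with 6 points, as 674 genes had an r above 0.9 with *AQP5* and 589 with *AQP1*. The genes named are the highest of the 10634, and all share the arrays and their scaling.

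Other genes of ion and osmolyte transport were compared in the same way, and none passed the test by limma. The 6 lists held 64 measured genes, the 7 aquaporins above included. At an unadjusted p under 0.05, 3 of them were higher in large cells and 8 were lower. That is 4.69% and 12.5%, near the 4.33% and 10.5% of all genes. The count of 11 list genes was 4 without small pool 6, 5 without small pool 5, 6 without large pool 2 or 4, and 7 without small pool 7.
Chloride channels and transporters other than LRRC8 held the 3 higher ones and also 4 of the 8 lower ones. These were 14.3% and 19% of the 21 measured genes of this list. In the brightest of the 5 signal classes, which holds *CLCN3*, 9.75% of genes were higher at an unadjusted p under 0.05 and 2.61% lower. In the class of *OSTM1* these shares were 4.92% and 11.6%, and in that of *ANO10* 2.96% and 16%. *CLCN3*, a chloride-proton exchanger of endosomes once proposed as the volume-regulated channel, had 9.05, 8.75 and 8.35 in large and 6.99, 7.80 and 7.65 in small pools. All 6 values were above the floor and the groups were well apart. Large minus small was 1.23 on the log2 scale (SE 0.27, interval 0.58 to 1.89, unadjusted p = 0.00362, adjusted p = 0.323, both by limma), and it lay between 0.99 and 1.42 when a pool was left out. *OSTM1*, the partner of the lysosomal exchanger *CLCN7*, had 0.44, with 7.22 to 7.55 in large and 6.65 to 7.08 in small pools. It had 0.33 without large pool 4 and 0.31 without small pool 7. In these fits, and without large pool 2, its unadjusted p by limma was no longer under 0.05. *CLCN7* itself was below the floor in all pools and had -0.22, or -0.14 without small pool 5. *ANO10*, of the anoctamin family, had 0.72, with no large pool under 7.03 and no small pool over 6.98. Without large pool 3 it had 0.43. When a pool was left out, its unadjusted p by limma stayed under 0.05 only without large pool 2 or small pool 7. Its relative *ANO6*, a lipid scramblase and channel, had 1.43 with an SE of 1.00, and small pool 6 stood alone at 4.99, without which it had 0.22. *CLCN7*, *ANO10* and *ANO6* were named after their values were seen. *TTYH3*, a tweety-family protein, had -0.30. Of the 21 measured genes of this list 8 were higher and 13 lower, with a median of -0.11.
Cotransporters, pH exchangers and their kinases had 6 higher and 8 lower of 14, with a median of -0.11. The smallest p belonged to the kinases *WNK1*, which senses chloride and crowding, with 0.33, and *STK39* (SPAK), which WNK kinases activate, with 0.85, and to the potassium-chloride cotransporter *SLC12A4* with -0.22. *STK39* had 9.41, 8.67 and 9.19 in large and 7.67, 8.05 and 9.01 in small pools, so small pool 7 overlapped, and it had 0.56 without small pool 5. *SLC12A2* (NKCC1), the sodium-potassium-chloride cotransporter that such kinases switch on, had 10.51, 10.05 and 10.25 in large and 10.52, 9.97 and 10.17 in small pools, a log2 fold change of 0.05 (interval -0.40 to 0.51) that turned to -0.07 without large pool 2 or small pool 6, and was named after its value was seen.
The sodium pump and potassium channels had 3 higher and 5 lower of 8 (median -0.04). Pump subunit *ATP1B2* had -0.30, or -0.18 without large pool 3, and *ATP1B1* had 0.19, or 0.10 without small pool 6. The potassium channel *KCNQ1* had -0.18, from -0.27 without large pool 4 to -0.08 without small pool 5. It was above the floor in 1 large pool and all 3 small pools. Of the organic osmolyte and hypertonic response genes 5 were higher and 2 lower of 7 (median 0.09). The phospholipase *PNPLA6* had -0.27, the taurine transporter *SLC6A6* -0.25, and *HSPA4L*, a chaperone induced by osmotic stress, 0.78, which was 0.25 without small pool 6. *PNPLA6* and *SLC6A6* were under the floor in all large pools. Of the osmo- and mechanosensitive cation channels 4 were higher and 3 lower of 7 (median 0.15), with *PIEZO2* at 0.80, *TMEM63A* at 0.35 and *TMEM63B* at 0.15. The brightest signal class holds *WNK1*, *STK39*, *HSPA4L* and *PIEZO2*. In that class 2282 genes were higher and 1399 lower, with a median log2 fold change of 0.08. *PIEZO2* had 0.41 without large pool 2 and 1.15 as the mean of its probe sets (unadjusted p = 0.00168, adjusted p = 0.322, both by limma). Its unadjusted p by limma was also under 0.05 with array weights, after centring and without large pool 3, but not as deposited. *TMEM63A* had 0.21 without large pool 2, and *TMEM63B* 0.08 without large pool 3 and 0.30 with the signal trend removed. The median of the sodium pump list turned positive after quantile normalization, centring or removal of the signal trend (0.04, 0.05 and 0.11).
The list medians were small and moved with single pools. With 1 pool left out they ran from -0.16 (without small pool 7) to -0.07 (without small pool 5) for the chloride list and from -0.13 (small pool 6) to -0.02 (small pool 7) for the cotransport list. The sodium pump list ran from -0.11 (large pool 4) to -0.003 (small pool 5), the osmolyte list from 0.001 (small pool 6) to 0.13 (small pool 5), and the cation channel list from 0.03 (small pool 6) to 0.19 (large pool 4). With the signal trend removed the medians were -0.03, -0.02, 0.11, 0.10 and 0.22 in the same order, and the lower genes lay closer to 0, with *AQP2* at -0.19, *AQP8* at -0.15, *AQP10* at -0.08, *SLC12A4* at -0.07, *ATP1B2* at -0.16, *PNPLA6* at -0.12 and *SLC6A6* at -0.10.

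**Figure D3:**
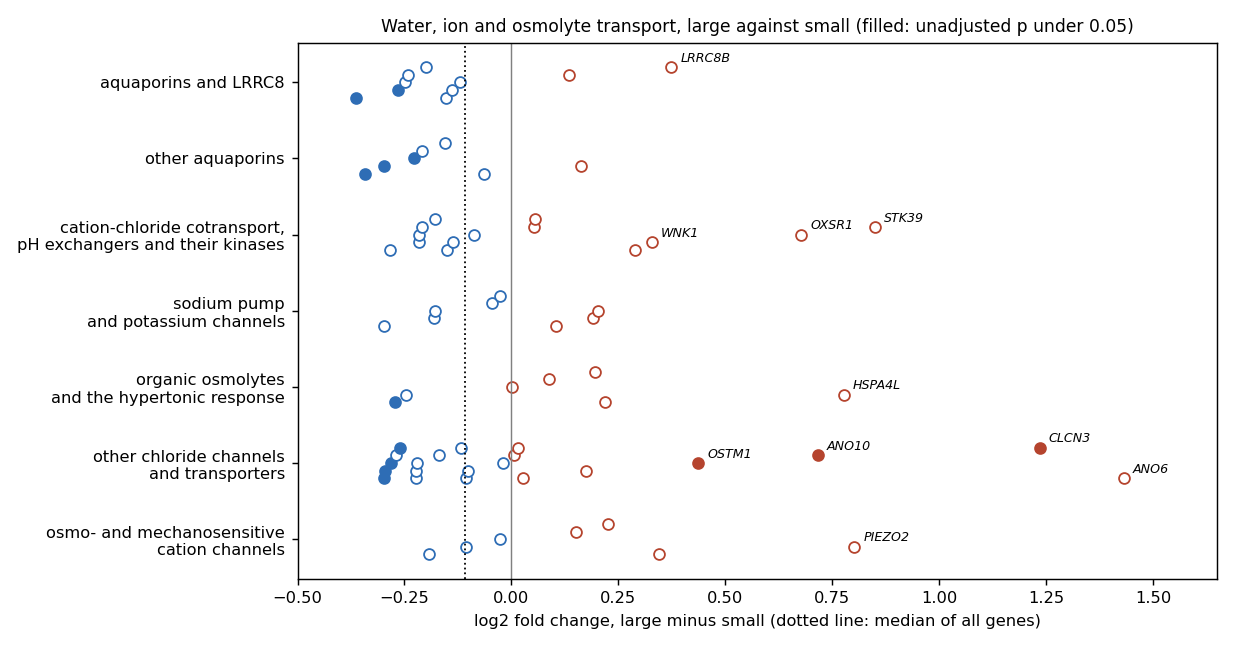
Log2 fold changes, large minus small (horizontal axis), of the 10 genes in the top line and for the measured genes of the 6 lists below it; filled points had an unadjusted p under 0.05 by limma, red is higher and blue lower in large cells, and vertical offsets within a line carry no meaning. The filled points to the right of 0 are *CLCN3*, *ANO10* and *OSTM1*, and no gene passed when adjusted over all genes.

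All 7 chordoma markers measured, *TBXT*, *KRT8*, *KRT18*, *KRT19*, *CD24*, *MUC1* and *VIM*, were above the floor in all 6 pools. The 4 endothelial markers, *PECAM1*, *VWF*, *CDH5* and *TEK*, were above it in no pool, nor were the erythroid genes *HBB* and *ALAS2*, and *AQP1* was itself below it throughout. The leukocyte marker *PTPRC* was below it in all pools, whereas *CD14* was above it in 1 large and all 3 small pools and *CD3E* in 1 large pool. Of 6 fibroblast markers 3 were above it in all pools, all 6 had lower means in large cells (4 with the signal trend removed), and their mean level ran from 6.88 to 7.05 in large and from 7.19 to 7.54 in small pools. All 4 endothelial and both erythroid markers also had lower means in large cells as deposited (medians -0.21 and -0.18). Of all genes 66.4% did, as did 70.1% of the dimmest signal class and 77.3% of the next, which hold these markers. With the signal trend removed, 3 endothelial markers and 1 erythroid marker had lower means. The part of any of these cell types in the aquaporin values was not tested. The array medians were 6.64 to 6.68 in large and 6.73 to 6.76 in small pools, and 53.1% to 56.4% and 58.1% to 60.1% of genes were above the floor. Fewer transcripts per cell and a smaller share of the amplified cDNA cannot be told apart in such pools.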

How the data were processed

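The authors deposited log2 expression values for 32321 probe sets, 1 column per array, after robust multi-array averaging (background correction, quantile normalization over the arrays, median polish). According to the methods this was done with affy in R, whereas the submitters' processing notes list the Expression Console of Affymetrix; which chip definition was used is not given. Replicates were not pooled, and 0 value columns were left unused. The number of arrays limits the precision.

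Pools were grouped by the submitters' titles. Of the probe sets 19158 carried 1 symbol in the platform annotation; per symbol the one with the highest mean over the 6 arrays was kept. Current symbols and coordinates came from RefSeq (GRCh38.p14), where 30 probe sets had no match. Large minus small was fitted over all 18404 genes with limma 3.58.1 in R 4.3.3, without covariates and with Benjamini-Hochberg adjustment. The study's filter on unexpressed and unchanging genes, whose limits the sources used here do not state, was left out so that all 10 genes were tested. An expression floor of log2(100) in at least 25% of the arrays kept 6 of them, and with an interquartile range above 0.5 it kept 0. The fit was tested on simulated data with independent noise, no trend with signal level, and planted changes larger than those of the 10 genes. That test does not show how well changes of their size are found.

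The genes and lists were chosen with earlier results of these data known. Named were the 10 genes, the 3 with the smallest p in each list, and the 3 nearest patterns for the 2 genes with the smallest p; exceptions are stated. Alternatives covered the filter, the variance model, array weights, scaling, probe sets and each pool left out.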

Additional observations from a re-analysis of the deposited data

How the results depend on the processing

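None of the 10 genes passed both thresholds in any of the 15 alternatives that tested them, and limma gave them adjusted p between 0.31 and 0.976. Of 146 recomputed log2 fold changes, 145 kept their direction; *AQP3* turned from -0.14 to 0.0102 with the signal trend removed. The count of genes with an unadjusted p under 0.05 was 2, *AQP5* and *AQP1*. It was 1, *AQP5*, with the expression floor alone (6 genes tested), over all probe sets and with array weights, and 1, *LRRC8B*, which was higher, with the signal trend removed, where *AQP5* and *AQP1* dropped out. It stayed 2 after quantile normalization (*AQP5* and *LRRC8A*) and after centring (*AQP5* and *LRRC8B*), and ran from 1 to 3 when a pool was left out. The count of genes whose groups did not overlap, which was 4, was 2 with the floor alone, since *AQP1* and *LRRC8B* were no longer tested. With the interquartile range as well no member was left to test, and 2 other genes passed both thresholds. The count without overlap was 3 after quantile normalization or with the signal trend removed, and 6 without large pool 2, large pool 4 or small pool 7. Of all genes, 21.6% had every large pool below as deposited, and 14.7%, 7.54%, 30.5%, 29.1% and 30.5% in those fits in that order. Every large pool lay above in 5.48% as deposited, and in 6.03%, 8.5%, 8.06%, 9.71% and 9.17% in the same order. The count of 11 list genes at that p was 1 with both filters and 7 over all probe sets. It was 12, *PIEZO2* included, with the mean of probe sets, and 6 after quantile normalization. After centring it was 7, with the signal trend removed 7, and 4 to 8 when a pool was left out. Over all genes, 797 were higher and 1934 lower at that p as deposited, 834 and 1086 after quantile normalization, 1207 and 718 after centring, and 1131 and 457 with the signal trend removed. When a pool was left out, 684 to 864 of all genes were higher and 1021 to 1591 lower. No paired analysis was possible because the pools of the phenotypes share no number. For *AQP1*, *AQP9*, *AQP11* and *LRRC8B* signal near background limits what the arrays can show.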
